A study of Mus musculus with 132 samples.

Results

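CTCF and the cohesin machinery were represented by 10 genes, chosen by name from the 25146 entries of a poly(A)-minus RNA-seq count table: Ctcf, the cohesin ring genes Smc1a, Smc3 and Rad21, the paired accessory subunits Stag1 and Stag2, the loader Nipbl, the release factor Wapl, and Pds5a and Pds5b. All 10 were found, and all 10 passed the filter on low counts that left 12543 genes to test. The 23 libraries came from mouse embryonic stem cells (mESCs) of the male E14-TG2a line, taken undifferentiated on day 0 (Undiff), as Flk1+ mesoderm sorted on day 4, or as CD41+ hematopoietic progenitor cells (HPCs) sorted on day 7. Wild type (WT) was represented by 2 technical replicates of 1 Undiff culture, 3 Flk1 libraries and 4 CD41 libraries of 3 clones named C6.1, C8.1 and B9.3, the last of which was taken for CD41 again as B9.3-2. P1-CTCF-KO clones E7.1, E7.2 and E9.1 carried CRISPR deletions of the CTCF site beside the distal Runx1 promoter and gave 3 Flk1 and 3 CD41 libraries. P2-CTCF-KO clones D2.1, D10.1 and E9.1 carried deletions of the CTCF site beside the proximal Runx1 promoter and gave 3 Flk1 and 5 CD41 libraries, with D2.1 and D10.1 each taken again. The deletions removed binding sites at Runx1 on both alleles and left the Ctcf gene itself in place, so the 2 KO names refer to sites and not to loss of the protein. Per the legends of the study's supplementary figures the KO clones were sub-clones of a few targeting events, so that clones of 1 genotype can share an event.

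CTCF is a zinc finger protein that binds DNA at an oriented motif and stops the cohesin ring as it extrudes chromatin into loops, so that loops and the borders of topologically associating domains form between bound sites. Cohesin is a ring of SMC1A, SMC3 and RAD21 with either STAG1 or STAG2. NIPBL loads cohesin and drives extrusion, WAPL opens the ring and releases it from DNA, and the PDS5 proteins bind the ring beside WAPL and NIPBL. The assay measured RNA without a poly(A) tail, which is enriched for nascent transcripts, with reads in exons and introns counted together. A level is given here in CPM, the read count relative to the library size, where each library size was first multiplied by TMM, a scaling factor computed across genes. In bulk libraries like these, a change in the number of cells of one type cannot be told apart from a change in RNA per cell.

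Total counts ran from 20532578 to 24283287 in Undiff, from 18233679 to 24406998 in Flk1 and from 7805102 to 13513677 in CD41. A set of 186 entries was set apart as abundant: Rn45s and those placed on several chromosomes or spanning over 2500000 bases. This rule goes by placement and span and not by level, and some of these entries enclose other genes, Ctcf among them. The 186 entries took 68.1% to 76.3% of the Undiff counts, 88.8% to 91.0% of the Flk1 counts and 87.8% to 89.1% of the CD41 counts. This left 878966 to 7748567 other counts per library. The 10 genes together held 9526 and 19556 counts in the 2 Undiff libraries, 1114 to 3172 in the 9 Flk1 libraries and 835 to 1966 in the 12 CD41 libraries. The depletion of ribosomal RNA was described for undifferentiated mESCs and not for sorted cells, so that stage and library preparation cannot be told apart in any comparison with Undiff. The stage labels were checked against marker genes. The summed level of 5 pluripotency genes was 35.4 to 38.4 CPM in Undiff and at most 3.93 CPM elsewhere. The summed level of 5 mesoderm genes was 24.8 to 74.6 CPM in Flk1 and at most 19.5 CPM in CD41. The summed level of 6 progenitor genes was 77.9 to 259 CPM in CD41 and at most 26.0 CPM in Flk1. Itga2b, which encodes CD41, was 18.5 to 40.9 CPM in the WT CD41 libraries and 0.486 to 1.2 CPM in the WT Flk1 libraries. Runx1, whose CTCF sites were deleted, was 4.01 to 15.5 CPM in WT Flk1 and 75.1 to 135 CPM in WT CD41.

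The promoter sequences of Ctcf, Wapl and Pds5b are shown because Wapl and Pds5b carried the largest stage differences among the 10 genes and Ctcf is the factor itself. RefSeq entries on GRCm38.p6 were found for 7 of the 10 genes, Ctcf, Smc1a, Smc3, Stag1, Wapl, Pds5a and Pds5b. Each runs from 250 bases before to 50 bases after the start, 5′ to 3′ on the strand of the gene. Capitals mark matches, on either strand, to the motif of the factor NRF1, which reads GCGCA, any base and GCGC, or to GCCATNTTG, a motif of the factor YY1, both chosen after the promoters had been read.
Ctcf, chr8:105636288-105636587, plus strand: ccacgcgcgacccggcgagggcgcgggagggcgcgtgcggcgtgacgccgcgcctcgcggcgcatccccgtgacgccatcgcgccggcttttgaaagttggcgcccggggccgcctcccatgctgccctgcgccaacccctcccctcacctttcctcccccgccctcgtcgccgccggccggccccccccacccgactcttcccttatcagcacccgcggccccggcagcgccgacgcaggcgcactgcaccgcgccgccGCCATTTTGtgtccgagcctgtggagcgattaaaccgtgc
Wapl, chr14:34673678-34673977, plus strand: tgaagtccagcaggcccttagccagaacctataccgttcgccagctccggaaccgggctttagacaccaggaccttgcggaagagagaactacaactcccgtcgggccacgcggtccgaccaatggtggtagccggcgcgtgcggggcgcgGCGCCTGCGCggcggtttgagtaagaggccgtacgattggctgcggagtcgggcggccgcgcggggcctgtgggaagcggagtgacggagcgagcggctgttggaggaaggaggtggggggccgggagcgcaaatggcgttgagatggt
Pds5b, chr5:150673577-150673876, plus strand: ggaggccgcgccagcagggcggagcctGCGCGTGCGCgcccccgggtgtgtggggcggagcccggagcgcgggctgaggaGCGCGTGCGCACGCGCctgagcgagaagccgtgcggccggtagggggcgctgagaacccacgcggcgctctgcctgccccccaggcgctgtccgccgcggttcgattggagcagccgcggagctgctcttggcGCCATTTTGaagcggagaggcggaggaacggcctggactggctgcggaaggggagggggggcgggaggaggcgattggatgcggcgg

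These promoters were rich in CpG dinucleotides. The Ctcf promoter held 47 CpGs, that of Wapl 35 and that of Pds5b 41, and the 7 promoters ranged from 23 in Smc1a to 55 in Pds5a, against a median of 7 over 32851 promoters. Their GC content was 58.3% to 80.3%, against a median of 52.7%. The NRF1 motif was matched in 3 of the 7 promoters, those of Stag1, Wapl and Pds5b, and in 4.60% of all promoters. In Pds5b it was matched at 3 places, 2 of which overlapped. The YY1 motif was matched in 3 of the 7, those of Ctcf, Smc3 and Pds5b, and in 2.51% of all promoters. A core form of the CTCF motif, which reads CCA, any 2 bases, AG, any 2 bases and GGC, was matched in none of the 7 and in 2.43% of all promoters. The NRF1 and YY1 motifs were picked from these same promoters, and the shares over all promoters are not matched for CpG content. The shares are therefore no test, and the matches describe the letters in the window.

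Accessible chromatin and CTCF occupancy at the 10 genes were taken from 3 peak lists, each called on merged reads and so without replicates: 76766 ATAC-seq peaks of WT Flk1 cells, 29037 ATAC-seq peaks of WT CD41 cells and 44513 peaks of CTCF ChIP-seq in 416B, a hematopoietic progenitor line of the mouse. The ATAC-seq cells came, per the study's methods, from a Runx1 reporter line of E14-TG2a. All 10 genes had an Flk1 ATAC-seq peak within 1000 bases of the start of the entry, against 55.2% of 24961 placed genes and 84.6% of the tested genes. In CD41 9 of 10 had one, against 37.1% of placed and 61.9% of tested genes, and the exception was Stag2, whose nearest CD41 peak lay 1061 bases from the start. Within 5000 bases all 10 had a CD41 peak, against 44.2% of placed genes. A CTCF peak lay at the start of 7 of the 10 genes, Ctcf, Smc3, Stag1, Stag2, Nipbl, Pds5a and Pds5b, against 12.8% of placed genes and 18.2% of tested genes. Among the 7582 tested genes with ATAC-seq peaks at the start in both stages, 20.4% had a CTCF peak. For CTCF, counting peaks within 500 bases gave 6 genes, with Nipbl lost, against 9.11% of placed genes, and counting within 5000 bases gave 7, against 32.2%. No test of the list was made.

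**Figure D1:**
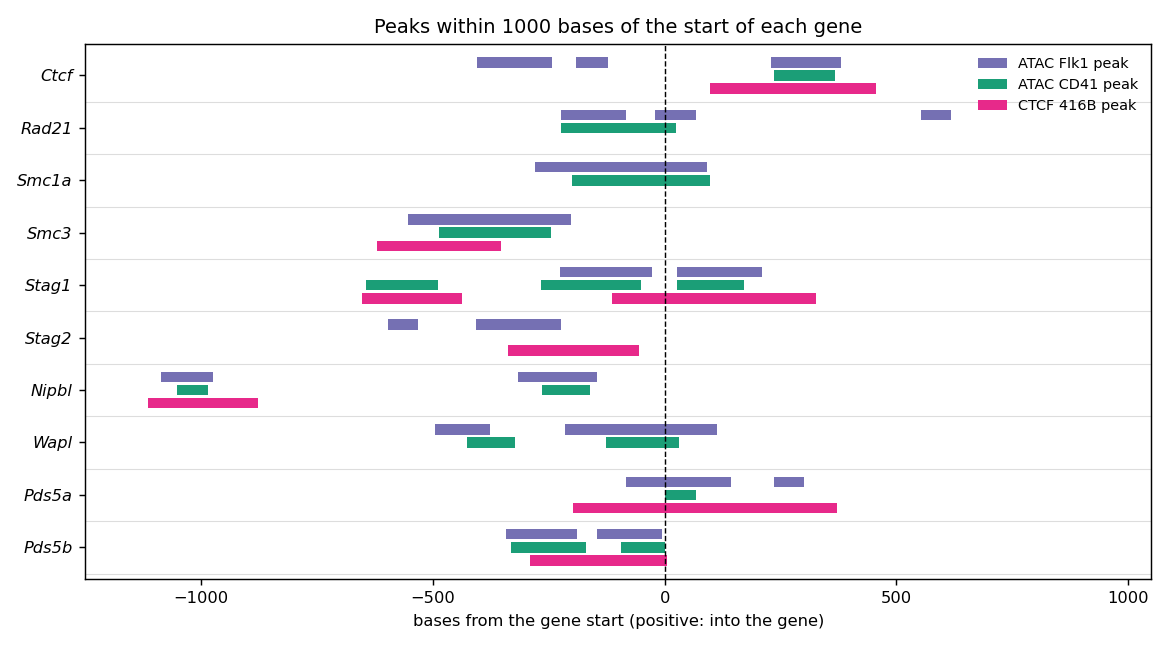
Peaks within 1000 bases of the start of each of the 10 genes, by distance in bases from the start with positive values into the gene, for WT Flk1 ATAC-seq, WT CD41 ATAC-seq and 416B CTCF ChIP-seq. CTCF peaks are seen at 7 genes and are missing at Rad21, Smc1a and Wapl.

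The start of Ctcf itself was occupied. On mm9 the gene spans chr8:108160437-108206822 on the plus strand, and the CTCF peak chr8:108160536-108160893 was centred 277 bases into it, where an Flk1 and a CD41 ATAC-seq peak also lay. Wapl, at chr14:35487113-35561169 on the plus strand, had 2 ATAC-seq peaks at its start in each stage, no CTCF peak within the gene, and its nearest CTCF peak 52631 bases from the start. Rad21 had its nearest CTCF peak 28505 bases away and Smc1a 69117 bases away. Stag1 had 2 CTCF peaks at its start, 1 of them upstream, and 5 within the gene, or 0.0159 a kilobase, against 0.0259 to 0.0440 in the other 5 genes with a CTCF peak inside. The start of Stag1 was taken from the count table. The GENCODE gene starts 45649 bases farther upstream, and no peak of any list lay within 1000 bases of that start.

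Matches to the CTCF core motif were searched in these peaks on mm9, because CTCF binds it in one orientation. It was matched in 44.1% of the 44513 CTCF peaks and in 2.40% of windows of the same lengths shifted by 5000 bases. At the starts of the 10 genes it was matched in the peaks of Smc3 and Stag1, each on the strand of the gene. The matches are shown in capitals with 9 flanking bases on each side. The Smc3 match was centred at -481 bases, upstream of the start, and the 2 Stag1 matches lay in a non-coding exon, 131 and 189 bases past the start. Matches in CTCF peaks farther inside the genes are not shown. They lay on the strand opposite to the gene in Smc3, Stag1, Nipbl and Pds5b and on the strand of the gene in Pds5a.
Smc3, chr19:53674390-53674419, plus strand: ggctcggaaCCAGCAGGAGGCgctctgagc
Stag1 first, chr9:100543983-100544012, plus strand: gcagcgcggCCAGCAGAGGGCggtcgggac
Stag1 second, chr9:100544041-100544070, plus strand: tggaaaatgCCACCAGATGGCgggttagga

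Levels were compared between genes per kilobase of gene span, since introns were counted. In WT Flk1 Rad21 was highest at 0.268 CPM per kilobase and Stag1 lowest at 0.0771, with Pds5a at 0.210, Ctcf at 0.185, Smc1a at 0.147, Smc3 at 0.143, Stag2 at 0.133, Nipbl at 0.128, Wapl at 0.125 and Pds5b at 0.118 (means, n = 3). Each neighbouring pair from Smc1a to Pds5b in this order differed by less than the larger SD of the pair. In WT CD41 Rad21 was again highest at 0.365, with Wapl next at 0.328, ahead of Pds5a at 0.228 (means, n = 4).

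Ctcf held a similar level in mesoderm and in HPCs. Its level was 6.17 and 5.81 CPM in the 2 Undiff libraries. In WT Flk1 it was 9.01 in B9.3, 9.11 in C6.1 and 7.63 in C8.1. In WT CD41 it was 6.35 in B9.3, 9.21 in B9.3-2, 10.5 in C6.1 and 8.58 in C8.1. The Flk1 and CD41 values of WT overlapped. The log2 fold change of CD41 over Flk1 was 0.01 ± 0.22 (SE) in WT (95% interval -0.44 to 0.46, edgeR adjusted p = 1) and -0.13 ± 0.13 averaged over the 3 genotypes (95% interval -0.40 to 0.13, edgeR adjusted p = 0.401). The interval of the average leaves room for a fall to 0.759-fold and a rise to 1.1-fold. The P1-CTCF-KO libraries had 8.17, 7.04 and 8.80 CPM in Flk1 and 6.69, 6.93 and 4.56 CPM in CD41, where groups did not overlap (log2 fold change -0.40 ± 0.24, edgeR adjusted p = 0.210). The P2-CTCF-KO libraries had 7.37, 8.72 and 8.14 CPM in Flk1 and 6.97, 7.40, 5.58, 9.71 and 10.6 CPM in CD41. The Ctcf entry lies inside that of Tsnax, whose span in the table covers most of the chromosome, so reads were counted for more than 1 entry.

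By the root mean square difference of centred group means of log2 CPM over the 7 groups, the genes most like Ctcf among 12542 were Tpr (0.0529), Ahcyl1 (0.0681), Prdm2 (0.0890), Hnrnpd (0.0902) and 1700086O06Rik (0.0905). Among the other 9 genes of the machinery Pds5a came closest at 0.162, ranked 155, then Smc1a at 0.178, ranked 226. Wapl was farthest at 0.685, ranked 7487.

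**Figure D2:**
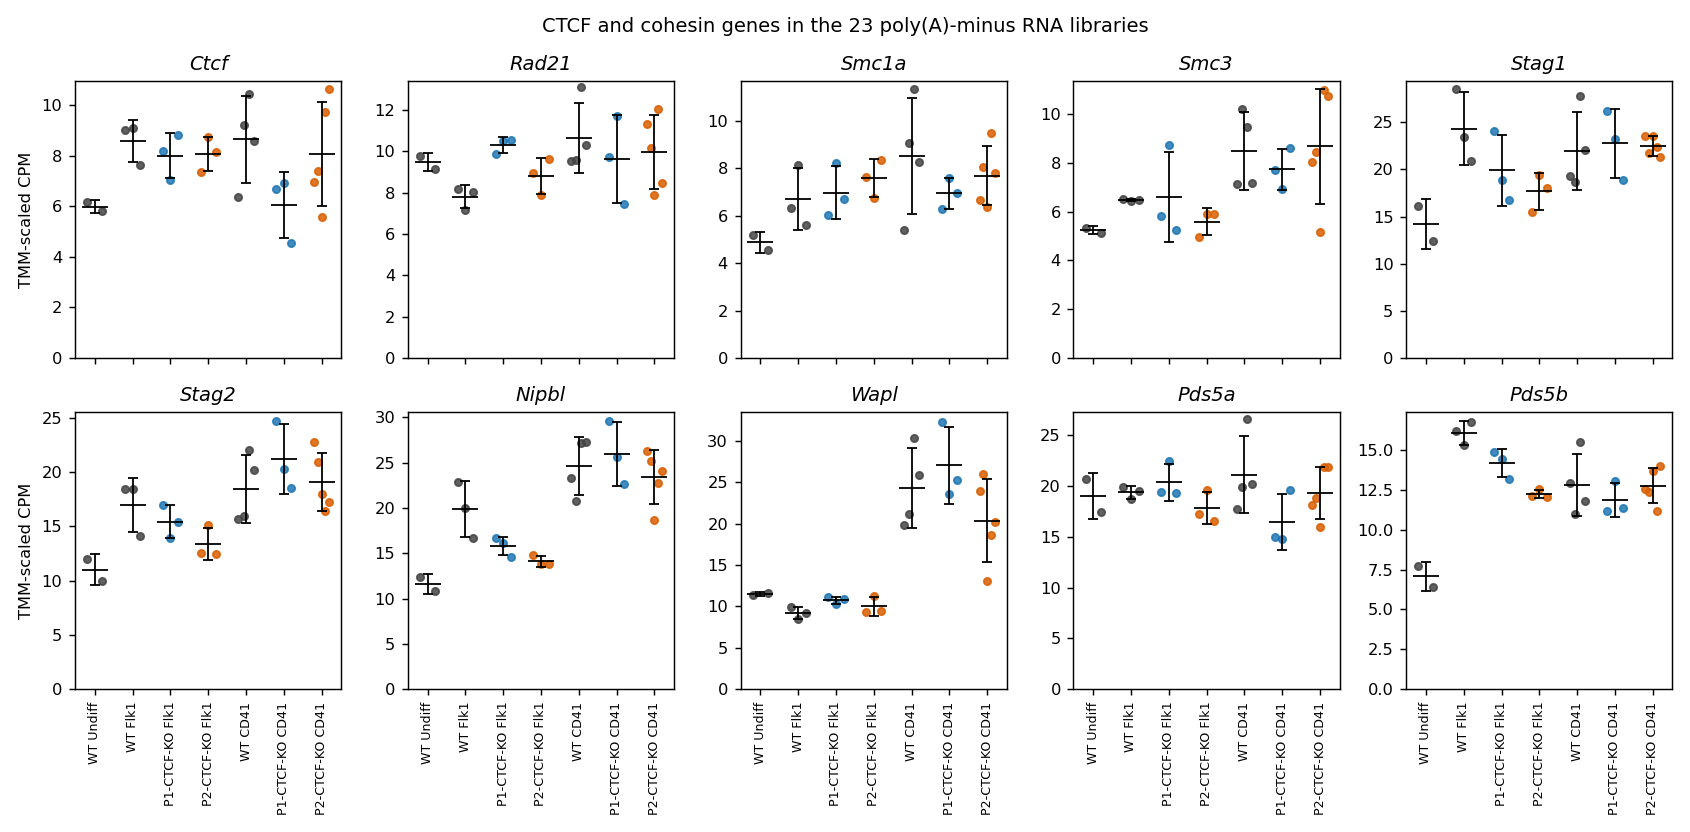
Levels of the 10 genes in TMM-scaled CPM in each of the 23 libraries, by group, with grey points for WT, blue for P1-CTCF-KO and orange for P2-CTCF-KO. Horizontal bars give the mean and the error bars the SD. Wapl lies between 8.50 and 11.3 CPM in the 9 Flk1 libraries and between 13.1 and 32.2 CPM in the 12 CD41 libraries.

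The largest difference among the 10 genes from mesoderm to HPCs was at Wapl, the release factor, which rose in all 3 genotypes. In WT Flk1 it was 9.94 CPM in B9.3, 8.50 in C6.1 and 9.26 in C8.1. In WT CD41 it was 19.8 in B9.3, 21.1 in B9.3-2, 30.4 in C6.1 and 25.9 in C8.1. Every WT CD41 library thus lay above every WT Flk1 library. The log2 fold change was 1.39 ± 0.21 (2.63-fold, 95% interval 1.93 to 3.58, edgeR adjusted p = 8.39e-05). It was the only one of the 10 genes called in WT, all 10 tested, where 27.7% of all tested genes were called in either direction, 13.4% higher and 14.3% lower.

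The same was measured in both KO genotypes. Wapl in P1-CTCF-KO was 11.1, 10.2 and 10.8 CPM in Flk1 and 32.2, 23.6 and 25.2 CPM in CD41, with no overlap (log2 fold change 1.33 ± 0.22, edgeR adjusted p = 0.000150). In P2-CTCF-KO it was 9.3, 11.3 and 9.40 CPM in Flk1 and 23.9, 25.9, 13.1, 18.6 and 20.2 CPM in CD41, again with no overlap (log2 fold change 1.03 ± 0.20, edgeR adjusted p = 0.000645). Averaged over genotypes it rose 2.38-fold (log2 1.25 ± 0.12, edgeR adjusted p = 3.73e-08). As a share of the summed counts of the 10 genes, which needs no scaling between libraries, Wapl took 6.28% to 9.3% in the 9 Flk1 libraries and 10.3% to 19.0% in the 12 CD41 libraries. In the 2 Undiff libraries this share was 10.6% and 12.5%. Wapl remained called in WT, P1-CTCF-KO, P2-CTCF-KO and their average under all 9 other processing choices tried and whichever library was left out. No other entry of the table overlapped Wapl.

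Nipbl, the loader, also rose. In WT Flk1 it was 22.8 CPM in B9.3, 20.0 in C6.1 and 16.7 in C8.1, and in WT CD41 it was 23.3 in B9.3, 20.7 in B9.3-2, 27.2 in C6.1 and 27.3 in C8.1. These WT groups overlapped, and the log2 fold change of 0.31 ± 0.17 was not called (edgeR adjusted p = 0.175). In P1-CTCF-KO Nipbl was 16.6, 16.1 and 14.6 CPM in Flk1 and 29.6, 25.6 and 22.7 CPM in CD41 (log2 fold change 0.71 ± 0.18, edgeR adjusted p = 0.00451). In P2-CTCF-KO it was 14.8, 13.8 and 13.8 CPM in Flk1 and 26.2, 25.2, 18.6, 22.8 and 24.1 CPM in CD41 (log2 fold change 0.73 ± 0.16, edgeR adjusted p = 0.00187). The groups of both KO genotypes did not overlap. Averaged over genotypes Nipbl rose 1.5-fold (log2 0.58 ± 0.10, edgeR adjusted p = 3.45e-05). The step was not shown to differ from WT in either KO genotype (difference 0.40 ± 0.24 in P1-CTCF-KO and 0.41 ± 0.23 in P2-CTCF-KO, edgeR adjusted p = 1 and 0.782).

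Of the ring genes, Smc3 rose 1.33-fold averaged over genotypes (log2 0.41 ± 0.14, edgeR adjusted p = 0.0143), and Smc1a and Rad21 were not called (log2 fold changes 0.12 ± 0.13 and 0.18 ± 0.11, edgeR adjusted p = 0.444 and 0.184). Smc3 was 6.51, 6.43 and 6.49 CPM in WT Flk1 and 7.13, 10.2, 9.47 and 7.17 CPM in WT CD41, which did not overlap, but it was not called in WT alone (edgeR adjusted p = 0.234). In P2-CTCF-KO it was called (log2 fold change 0.63 ± 0.23, edgeR adjusted p = 0.0383), although the groups overlapped through CD41 D2.1 at 5.16 CPM. The call was lost in 5 of 9 other processing choices, among them the clone as a block (edgeR adjusted p = 0.0764). Rad21 was 7.16 to 8.19 CPM in WT Flk1 and 9.53 to 13.1 CPM in WT CD41. Its WT groups did not overlap either, and its log2 fold change was 0.44 ± 0.19 (edgeR adjusted p = 0.0836).

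The 2 STAG subunits are alternatives in the ring. Stag2 rose 1.29-fold averaged over genotypes (log2 0.36 ± 0.11, edgeR adjusted p = 0.00661), and Stag1 was not called (log2 0.13 ± 0.11, edgeR adjusted p = 0.321). Stag2 was 18.4, 18.5 and 14.1 CPM in WT Flk1 and 15.6, 16.0, 22.0 and 20.2 CPM in WT CD41, overlapping groups. It was not called in WT (log2 fold change 0.12, edgeR adjusted p = 0.674). In P2-CTCF-KO its log2 fold change of 0.51 ± 0.18 was called (edgeR adjusted p = 0.0298). That call was lost in 5 of 9 other processing choices, among them the clone as a block (edgeR adjusted p = 0.0626).

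Neither PDS5 gene was called at this step. Pds5a was 14.8 to 26.6 CPM in the 12 CD41 libraries and 16.6 to 22.5 CPM in the 9 Flk1 libraries (log2 fold change -0.02 ± 0.10 averaged over genotypes, edgeR adjusted p = 0.885). Pds5b was 16.2, 15.3 and 16.8 CPM in WT Flk1 and 13, 11, 15.5 and 11.8 CPM in WT CD41, with C6.1 of CD41 reaching into the Flk1 range. Its log2 fold change of -0.33 ± 0.15 in WT was not called with TMM scaling (edgeR adjusted p = 0.113). It was called lower with RLE size factors (edgeR adjusted p = 0.0400), with DESeq2 (adjusted p = 0.00530) and without the abundant entries (edgeR adjusted p = 0.0387). Averaged over genotypes its log2 fold change of -0.17 was not called either (edgeR adjusted p = 0.105). This average was called lower in 3 of 9 other processing choices. It was also called in 1 of the 21 fits that left out 1 library (edgeR adjusted p = 0.0366).

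In counts, 1 of the 10 genes was higher in CD41 in WT, 2 in P1-CTCF-KO, 4 in P2-CTCF-KO and 4 in the average, with none lower. All tested genes gave 31.5% called in P1-CTCF-KO, 31.4% in P2-CTCF-KO and 53.3% in the average, with 15.7%, 16.9% and 25.3% of tested genes higher and 15.8%, 14.5% and 28% lower. With an absolute log2 fold change over 1 asked as well, Wapl was the 1 gene of the 10 called in each of WT, P1-CTCF-KO, P2-CTCF-KO and the average, where 23.1%, 26.8%, 25% and 33.5% of tested genes were called. The median log2 fold change of the 10 genes was 0.22 in WT, 0.09 in P1-CTCF-KO, 0.26 in P2-CTCF-KO and 0.15 in the average, against medians over all genes of -0.02, -0.16, 0 and -0.09.

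**Figure D3:**
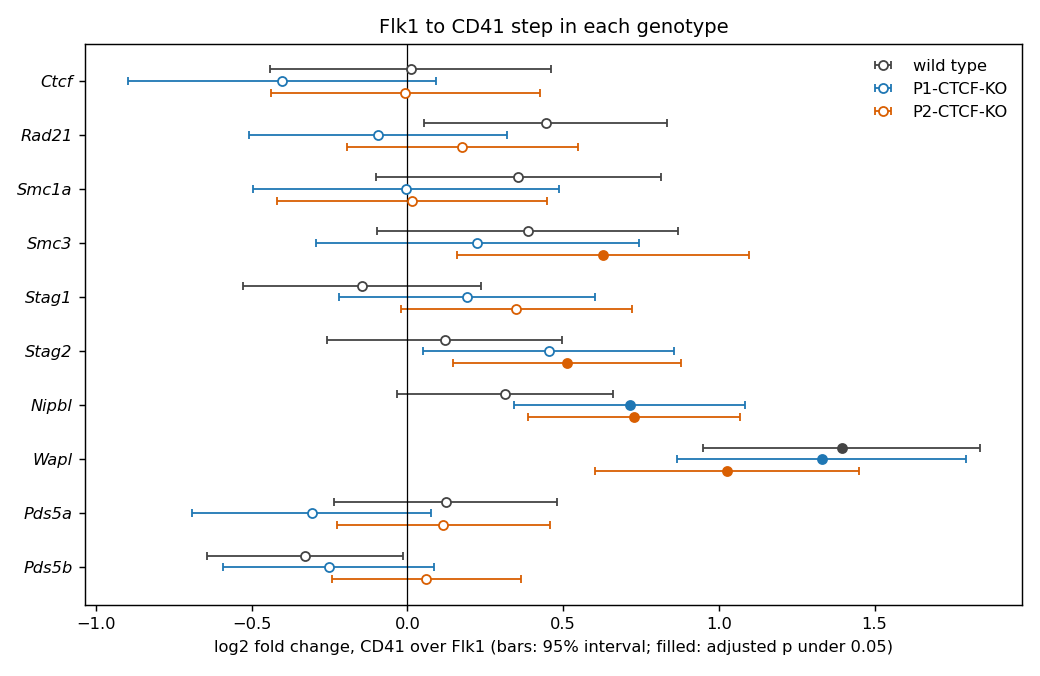
Log2 fold changes of CD41 over Flk1 for the 10 genes in WT, P1-CTCF-KO and P2-CTCF-KO, with 95% intervals, filled where the edgeR adjusted p was under 0.05. Wapl is filled in all 3 genotypes, at 1.39, 1.33 and 1.03, and Ctcf in none.

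Other transcripts moved with this step. All 3 erythroid markers, Hbb-bh1, Hba-x and Klf1, were higher in CD41, with a summed level of 24.0 to 168 CPM in the 12 CD41 libraries and 0 to 0.407 CPM in the 9 Flk1 libraries, and all 3 were at 0 in every P2-CTCF-KO Flk1 library. None of the 3 macrophage markers was tested, and their sum stayed at or under 1.01 CPM. Of 10 cell cycle genes 6 were lower and 1, Mki67, was higher in the average over genotypes. By genotype 1 was lower in WT, 4 in P1-CTCF-KO and 1 in P2-CTCF-KO. Their summed levels were 82.7 to 105 CPM in Flk1 and 65.3 to 193 CPM in CD41. The part of these transcripts in the member changes was not tested.

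The 10 regulators of cohesin fell in both directions at the same step. Averaged over genotypes 3 were higher and 4 lower, against 25.3% and 28% of all tested genes. Esco1, an acetyltransferase that modifies the SMC3 head and opposes release by WAPL, rose in WT (log2 fold change 1.43 ± 0.29, edgeR adjusted p = 0.000984), in P1-CTCF-KO (1.13 ± 0.30, edgeR adjusted p = 0.00715) and in P2-CTCF-KO (1.36 ± 0.28, edgeR adjusted p = 0.000771). Its level was 1.32 to 2.07 CPM in the 9 Flk1 libraries and 2.72 to 6.39 CPM in the 12 CD41 libraries, with no overlap. Hdac8, the SMC3 deacetylase, rose by 1.38 ± 0.25 on the log2 scale in the average (edgeR adjusted p = 6.55e-05) but was not called in WT (0.72 ± 0.41, edgeR adjusted p = 0.203). Esco2, an acetyltransferase of S phase, rose by 0.93 ± 0.30 in the average (edgeR adjusted p = 0.0115). The lower ones were Espl1, which encodes separase, Cdca5, which encodes sororin, Chtf18 of the clamp loader that acts in cohesion, and Pttg1, which encodes securin. Pttg1 was under 1 CPM in all 23 libraries and at 0 in the 3 P1-CTCF-KO CD41 libraries, so no fold is given. By genotype, 3 of the 10 regulators were called lower in P1-CTCF-KO and none in WT or P2-CTCF-KO. Mau2, the partner of NIPBL, was not called (0.21 ± 0.11, edgeR adjusted p = 0.113).

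Related complexes were measured beside cohesin. Of 8 condensin genes 4 were higher in the average and none lower, namely Smc2, Smc4, Ncapd3 and Ncapg2 (log2 fold changes 0.46 to 0.71). Over all tested genes 25.3% were higher in the average. By genotype 1 condensin gene was higher in WT, 0 in P1-CTCF-KO and 2 in P2-CTCF-KO. Of 7 SMC5/6 genes Nsmce1 and Nsmce2 were higher in the average, and by genotype 0 of the 7 were higher in WT, 1 in P1-CTCF-KO and 2 in P2-CTCF-KO. Among 7 other architectural genes Top2b was higher in the average (0.72 ± 0.12, edgeR adjusted p = 3.21e-05) and Maz lower (-0.38 ± 0.15, edgeR adjusted p = 0.0399). None of these 7 was called lower within a single genotype. The zinc finger gene Yy1 and the bridging gene Ldb1 were not called. Of 5 germline forms 2 passed the filter on low counts. Stag3 averaged 1.11 to 1.66 CPM across the 7 groups, and Ctcfl, the CTCF paralog of the germline, was at 0 in all 21 Flk1 and CD41 libraries.

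**Figure D4:**
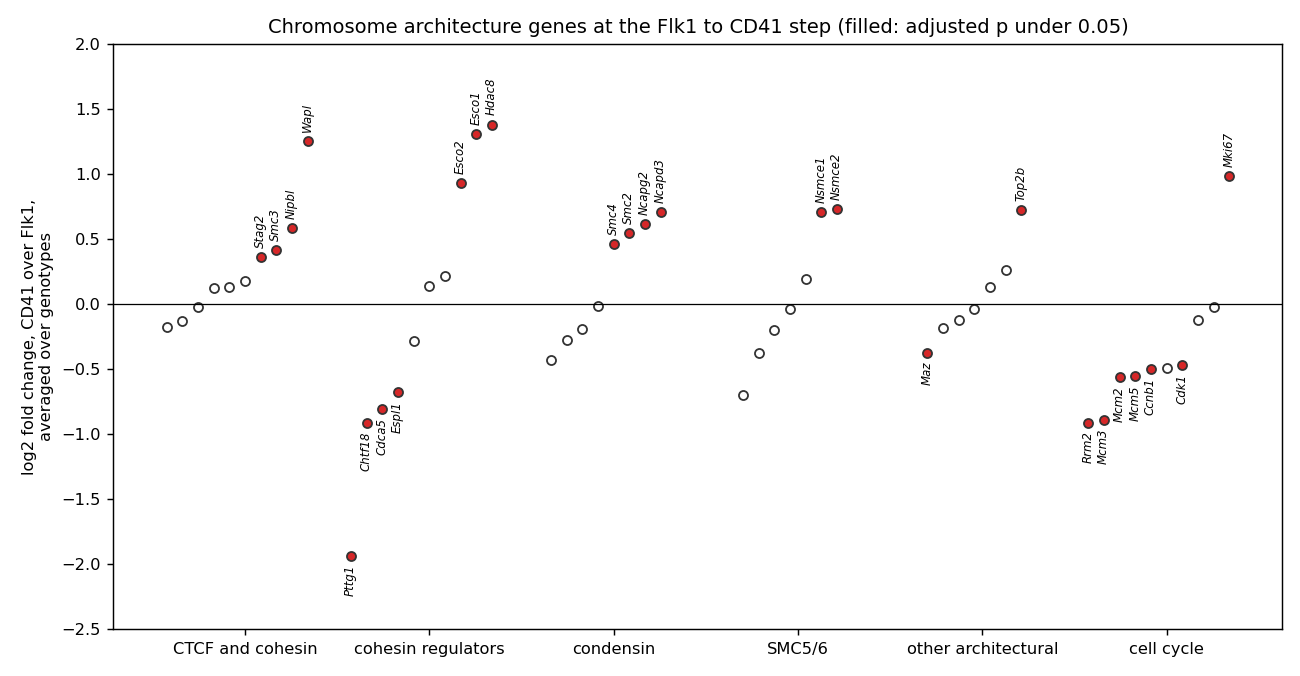
Log2 fold changes of CD41 over Flk1, averaged over genotypes, for the 10 genes and 5 related gene lists, 1 point a gene and list (Top2a stands in 2 lists), filled and named where the edgeR adjusted p was under 0.05. Wapl at 1.25 stands with Hdac8 at 1.38 and Esco1 at 1.31 at the top, and Pttg1, which was at 0 in the P1-CTCF-KO CD41 libraries, is lowest.

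The step from Undiff to mesoderm was read mainly within libraries, because its direction depended on scaling. With TMM, 4 of the 10 genes were higher in WT Flk1 and none lower, against 25.8% of tested genes called, 12.2% higher and 13.6% lower. They were Pds5b (log2 fold change 1.19 ± 0.18, edgeR adjusted p = 0.000131), Nipbl (0.77 ± 0.20, edgeR adjusted p = 0.00812), Stag1 (0.77 ± 0.22, edgeR adjusted p = 0.0149) and Stag2 (0.63 ± 0.22, edgeR adjusted p = 0.0379). The TMM factors were 4.97 and 7.55 for the Undiff libraries and 0.381 to 1.19 for the others. When libraries were instead scaled by the summed counts of the other entries alone, the median over all tested genes moved from -0.16 to -1.80 and 8 of the 10 signs turned. Relative to those medians Pds5b stood 1.35 above with TMM and 1.30 above without, Nipbl 0.93 and 0.88, Stag1 0.93 and 0.89, Stag2 0.79 and 0.71, and Wapl 0.15 and 0.18 below. A change of scaling shifts all genes of a library together, so these pairs are close by construction. They place a gene among the others and do not show whether its level rose. The technical replicates of Undiff were 1 culture, so the test holds no spread between cultures on that side. Without Undiff replicate techRep2, Pds5b alone was called, and without Flk1 B9.3 the calls were Pds5b and Nipbl. The Stag2 call was lost in 4 of the 5 fits that left out 1 library (edgeR adjusted p from 0.0284 to 0.240 over the 5) and in 4 of 8 other processing choices, and its sign turned in 1 more.

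From Undiff to CD41 7 of the 10 genes were higher with TMM and none lower, with Ctcf, Rad21 and Pds5a not called, against 47.4% of tested genes called, 20.5% higher and 26.9% lower. The 7 had log2 fold changes of 0.63 to 1.08. With an absolute log2 fold change over 1 asked as well, Pds5b was called from Undiff to Flk1 (22.8% of tested genes called), and Nipbl and Wapl from Undiff to CD41 (41.3%). This comparison shares its Undiff libraries with the one before it and its CD41 libraries with the one after, and the signs of all 10 genes turned under the summed-count scaling, where the gene median was -1.42.

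Ratios of paired genes within a library need no scaling. Pds5b to Pds5a read counts stood at 0.370 and 0.373 in the 2 Undiff libraries and at 0.814, 0.819 and 0.859 in the 3 WT Flk1 libraries, a 2.24-fold higher ratio without overlap. The exact permutation test of 2 against 3 libraries cannot go below p = 0.1, which it gave (2-sided, adjusted p = 0.343 over 27 ratio tests). In WT CD41 the ratio was 0.553 to 0.730, below each WT Flk1 value (exact permutation p = 0.0571, adjusted 0.343). In Flk1 both KO genotypes lay below WT, at 0.643 to 0.768 in P1-CTCF-KO and 0.642 to 0.728 in P2-CTCF-KO, each with the exact permutation p of 0.1 that 3 against 3 allows at the least. Stag2 to Stag1 was 0.646 to 0.788 in WT Flk1 and 0.791 to 0.913 in WT CD41 (exact permutation p = 0.0286, the smallest possible, adjusted 0.257). Over all genotypes it was 1.16-fold higher in CD41, with overlap (exact permutation p = 0.00600, adjusted 0.162). Smc3 to Smc1a was 1.23-fold higher in CD41 over all genotypes (exact permutation p = 0.0256, adjusted 0.257). Single libraries were permuted, so repeat CD41 libraries of B9.3, D2.1 and D10.1 counted as separate units. The pairing by clone was not used, and tests over all genotypes also permuted across genotypes. With clones as units WT would be 3 against 3, where 0.1 is the least possible p of the exact permutation test. None of the 27 tests passed after adjustment.

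**Figure D5:**
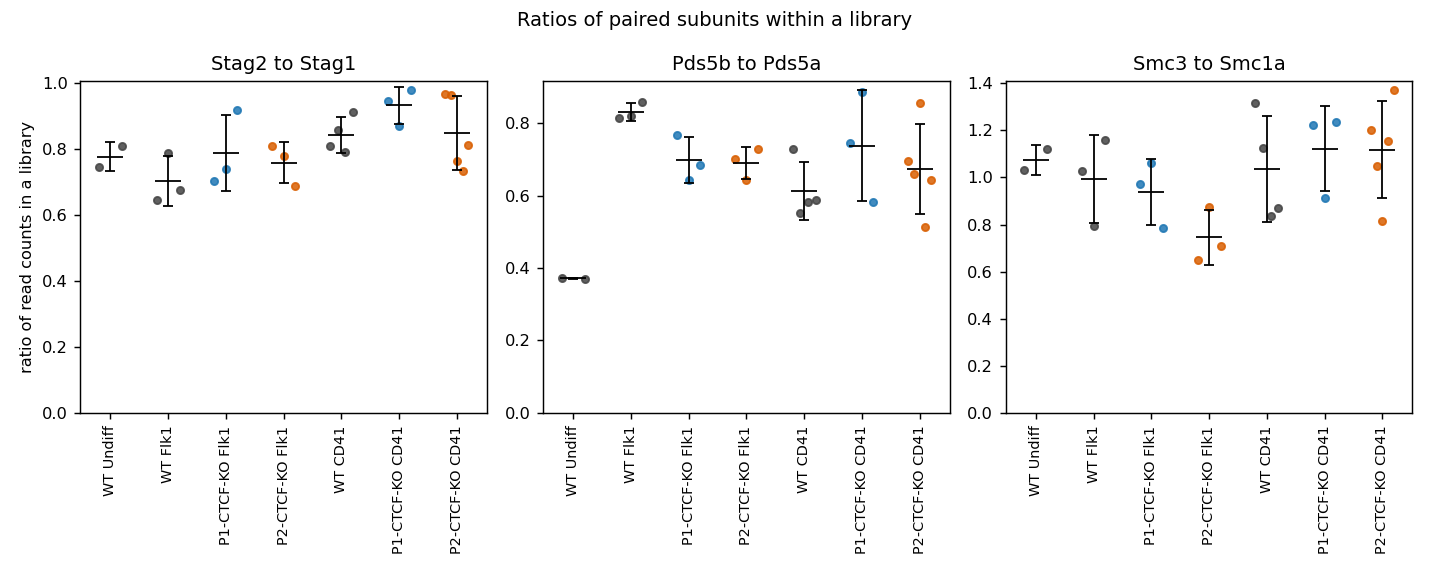
Ratios of read counts within each library for Stag2 to Stag1, Pds5b to Pds5a and Smc3 to Smc1a, by group, with mean and SD, grey for WT, blue for P1-CTCF-KO and orange for P2-CTCF-KO. Pds5b to Pds5a stands at 0.370 and 0.373 in Undiff and above 0.51 in every other library.

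No difference between genotypes was called for any of the 10 genes. In Flk1 none was called in P1-CTCF-KO against WT (0% of tested genes called), in P2-CTCF-KO against WT (0.144%) or between the KO genotypes (0.0399%). In CD41 none was called in the same 3 comparisons (0% each). By unadjusted edgeR p under 0.05 the counts were 0, 3 and 0 of the 10 genes in Flk1 and 1, 0 and 1 in CD41, where 1.47%, 10.2%, 7.38%, 4.70%, 4.33% and 10.9% of all tested genes passed. DESeq2 called none of the 10 in these 6 comparisons. Of all genes it tested, it called 128 of 9012 in P2-CTCF-KO against WT in Flk1 and 59 of 12069 between the KO genotypes in Flk1. In each of the other comparisons it called 0 or 2 of 19721. The 3 genes with an unadjusted edgeR p under 0.05 in Flk1 were Nipbl (log2 fold change -0.49 ± 0.18, edgeR adjusted p = 0.293), Pds5b (-0.39 ± 0.16, edgeR adjusted p = 0.378) and Stag1 (-0.46 ± 0.20, edgeR adjusted p = 0.408). Each was lower in all 3 P2-CTCF-KO libraries than in all 3 WT libraries. These genes were picked by p, which favours such separation, and its share over all tested genes was not counted. Beside these 3 genes, the summed progenitor markers were 3.58 to 10.4 CPM in P2-CTCF-KO Flk1 and 18.2 to 26.0 CPM in WT Flk1, with the mesoderm markers at 61.2 to 74.6 and 24.8 to 44.5 CPM. Their part in these values was not tested. For Ctcf itself the difference from WT was -0.10 ± 0.23 in P1-CTCF-KO Flk1 (95% interval -0.58 to 0.38), -0.09 ± 0.23 in P2-CTCF-KO Flk1 (-0.57 to 0.39), -0.51 ± 0.23 in P1-CTCF-KO CD41 (-0.99 to -0.04, edgeR adjusted p = 0.917) and -0.10 ± 0.19 in P2-CTCF-KO CD41 (-0.50 to 0.29). The 95% intervals over the 10 genes and 6 comparisons reached at most 0.99 on the log2 scale in either direction. The step from Flk1 to CD41 was not called as different from WT for any of the 10 genes in P1-CTCF-KO (0%) or P2-CTCF-KO (0.0159%).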

How the data were processed

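RNA was from E14-TG2a mESCs, WT or with CTCF sites at Runx1 deleted, in 7 groups of 23 libraries. Per the study's methods, the authors deposited raw read counts per gene: reads were mapped to mm9 with STAR, PCR duplicates were removed with picard, and reads in exons and introns were assigned with featureCounts. The annotation and strand setting are not given in the sources used here. LOC102635661, antisense within Ctcf, held 2 counts where strandless counting would have given about 287, so strand was used. Peak lists were called with MACS2 by the authors on merged reads.

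The 10 genes, the other lists and the tests were chosen with earlier results of these data known; every one of the 10 was described, and other genes were named when called or defining for their list. Counts were tested with edgeR 4.0.16 (TMM, filterByExpr with a minimum count of 10, glmQLFit and glmQLFTest, R 4.3.3) in 1 fit of 23 libraries; adjusted p is Benjamini-Hochberg over 12543 genes, and the threshold was 0.05. Of 25146 entries 5413 had no counts. Overlap of groups was checked for the listed genes only, so no share over all tested genes is given beside it. The 186 entries called abundant were Rn45s and those placed on several chromosomes or spanning over 2500000 bases, a rule on placement and span and not on level. Alternatives used DESeq2 1.42.0, other scalings and filters. Ratio tests were exact permutation tests with a pseudocount of 0.5, in Python 3.11.15. Clones pair Flk1 and CD41 libraries by their labels; deviations of libraries of the same clone correlated across genes at -0.04 to 0.12. The edgeR fit took each library as a unit, so repeat CD41 libraries of B9.3, D2.1 and D10.1 counted as separate. Its spread was pooled over the 7 groups, with the technical replicates of Undiff included. Clones of 1 genotype share a parental line and can share a targeting event. The edgeR p-values therefore measure the spread between clones, repeat cultures and these technical replicates.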

Additional observations from a re-analysis of the deposited data

How the results depend on the processing

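The count of called genes among the 10 moved by over 1.5 times as follows. From Undiff to Flk1 it was 4, and 1 with no filter on low counts, 1 with an absolute log2 fold change over 1, 2 with libraries of a clone summed and 9 with summed-count scaling, where all 9 were lower and 8301 of 11351 tested genes were also called lower. Over all tested genes 3242 of 12543 were called in the main fit, 3166 of 19733 with no filter, 2859 of 12543 with the fold limit and 2046 of 13847 with clones summed. From Undiff to CD41 the count among the 10 was 7, and 3 with no filter, 2 with the fold limit and 2 with summed-count scaling, which were Rad21 and Pds5a, both lower and neither among the 7, where 6840 of 11351 tested genes were called lower. All tested genes gave 5942 of 12543 called in the main fit, 6028 of 19733 with no filter and 5175 of 12543 with the fold limit. For CD41 against Flk1 in WT the count among the 10 was 1, and 2 with RLE size factors, with DESeq2 and without abundant entries, where Pds5b was added. Of all tested genes 3470 of 12543 were called in the main fit, 3471 of 12543 with RLE, 3627 of 13600 with DESeq2 and 3441 of 11351 without abundant entries. In P1-CTCF-KO the count among the 10 was 2, and 1 with no filter, with the fold limit and with summed-count scaling, and in each case Wapl stayed. Calls over all tested genes were 3951 of 12543 in the main fit, 3887 of 19733 with no filter, 3364 of 12543 with the fold limit and 3255 of 11351 with summed-count scaling. In P2-CTCF-KO the count among the 10 was 4, and 2 with RLE size factors, 2 with no filter, 1 with the fold limit and 2 with the clone as a replicate block. Calls over all tested genes were 3933 of 12543 in the main fit and 4038 of 12543 with RLE. They were 3827 of 19733 with no filter, 3142 of 12543 with the fold limit and 3075 of 9170 with the block. In the average the count among the 10 was 4, and 2 with no filter and 1 with the fold limit. All tested genes gave 6687 of 12543 called in the main fit, 6980 of 19733 with no filter and 4203 of 12543 with the fold limit. The block changed no other call among the 10 genes. Summed-count scaling was chosen after seeing the data.

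Leaving out 1 library at a time gave 1 to 4 from Undiff to Flk1, 3 to 8 from Undiff to CD41 (3 without Undiff techRep2, 6 without techRep1), 2 to 4 in P2-CTCF-KO (2 without Flk1 D10.1, Flk1 E9.1 or CD41 D10.1-2), 1 in WT, 2 in P1-CTCF-KO and 4 to 5 in the average. Calls over all tested genes are not given for these fits. The Stag2 to Stag1 difference over all genotypes ranged from 0.19 to 0.25 on the log2 scale and passed adjustment without P1-CTCF-KO Flk1 E9.1 (0.25).

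Under summed-count scaling the sign turned from Undiff to Flk1 for Ctcf (-1.19), Smc1a (-1.30), Smc3 (-1.39), Stag1 (-0.92), Stag2 (-1.09), Nipbl (-0.93), Pds5a (-1.67) and Pds5b (-0.50), and from Undiff to CD41 for Ctcf (-0.76), Rad21 (-1.12), Smc1a (-0.49), Smc3 (-0.59), Stag1 (-0.67), Stag2 (-0.54), Nipbl (-0.20), Wapl (-0.20), Pds5a (-1.14) and Pds5b (-0.43). Removing abundant entries moved the median of all genes from -0.16 to -0.04 from Undiff to Flk1. Of all calls in that comparison 47.2% were higher with TMM, 59.2% with DESeq2 and 4.12% with summed-count scaling. For CD41 against Flk1 in WT these were 48.3% and 70.6% with TMM and summed-count scaling, and in P2-CTCF-KO 53.7% and 78.8%, in P1-CTCF-KO 49.9% and 34.5%, in the average 47.4% and 58.4%, and from Undiff to CD41 43.3% and 10.7%. Depth limits the CD41 side most, where Ctcf had 33 to 106 counts a library.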
